A study of Caenorhabditis elegans with 12 samples.

Results

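HBR2340 is a Caenorhabditis elegans strain labelled with the allele syb1445 of the neuropeptide gene flp-11, and it was compared here with the wild-type strain N2 across all expressed genes. Both were collected as whole larvae after 48 h in L1 arrest, the developmental arrest of larvae that hatch without food. The comparison used 8 of the 12 libraries in the series, HBR2340 A to D against N2 A to D, chosen by their column names in the table of raw counts, and each letter is a biological replicate. The other 4 libraries are PHX2193, a strain with the flp-11 allele syb2193, which entered the fit for its estimate of spread and is given beside some genes. Eggs were freed with hypochlorite and left in M9 buffer without food, so every group hatched into starvation, and RNA came from whole worms broken by beads in Trizol. The labels do not say what syb1445 changes, no other allele is named for either strain, and each genotype is 1 strain, so the allele and any other difference between the strains cannot be told apart. Whether the replicates came from separate parents or days is not given, and p-values measure the spread between these libraries.

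Arrested L1 larvae have finished embryonic development but hold their blast cells undivided, and they live on stores laid down by the mother. The FOXO transcription factor DAF-16 is known to keep the arrest and to raise stress defence in it. Insulin-like signalling through the receptor DAF-2 holds DAF-16 back. RIS is a sleep-active interneuron that releases FLP-11 peptides, and sleep of this kind occurs in arrested larvae. The question asked here is which tissues, pathways and gene classes differ in RNA level between HBR2340 and N2, with and without the library N2 B.

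Of 46934 genes in the table, 15908 passed the count filter with all libraries and 16249 when N2 B was left out. Total counts per library were 23068345 to 34832403 in N2 and 25642142 to 28865328 in HBR2340. With all libraries 1173 genes were called, which is 7.37% of those tested, with 532 higher in HBR2340 (3.34%) and 641 lower (4.03%). A call means an adjusted p under 0.05 in the quasi-likelihood test of edgeR, adjusted by Benjamini-Hochberg over all genes tested, written below as edgeR adjusted p. Without N2 B the fit called 2880 genes (17.7%), with 1288 higher (7.93%) and 1592 lower (9.8%). These shares are the background against which the counts for gene groups below can be read. With all libraries 524 of the 532 higher genes and 541 of the 641 lower genes had no overlap between the strains. A lack of overlap, where it is given below, is thus common to most called genes. Of the 1173 genes, 1168 were also called in the same direction without N2 B, 5 were not, and none was called in the opposite direction. Leaving out 1 other library also changed the count by over 1.5 times, to 774 without N2 A and to 707, 661 and 671 without HBR2340 B, C and D. Levels are CPM, that is counts scaled to library size with TMM factors, and a fold change is given as log2 of HBR2340 over N2 with its standard error.

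N2 B stood apart from the other libraries. Each library was set against the average of the other 3 of its own strain. N2 B was over 2-fold away from them in 4288 tested genes (26.95%), and each of the other 7 libraries in 1.97% to 11.1% of genes, N2 D the most. The common biological coefficient of variation was 0.276 with N2 B and 0.205 without it. Among the 1712 genes called only when N2 B was left out, N2 B was the lowest of the 4 N2 libraries in 914 and the highest in 687. In 102 of them the fold change was below 0 with all libraries and above 0 without N2 B, and in none was it the other way round. The share of counts on ribosomal RNA was 1.28% to 8.72% in N2 and 0.730% to 6.14% in HBR2340. Of the 210 genes named here, 66 have exons that overlap a gene on the other strand. On the same strand 9 do so, namely col-160, hsp-12.6, irk-1, mes-6, mlt-10, rict-1, twk-13, twk-49 and vab-10. Whether the counting used strand is not stated in the labels or notes, so counts of these genes are uncertain to that extent.

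**Figure D1:**
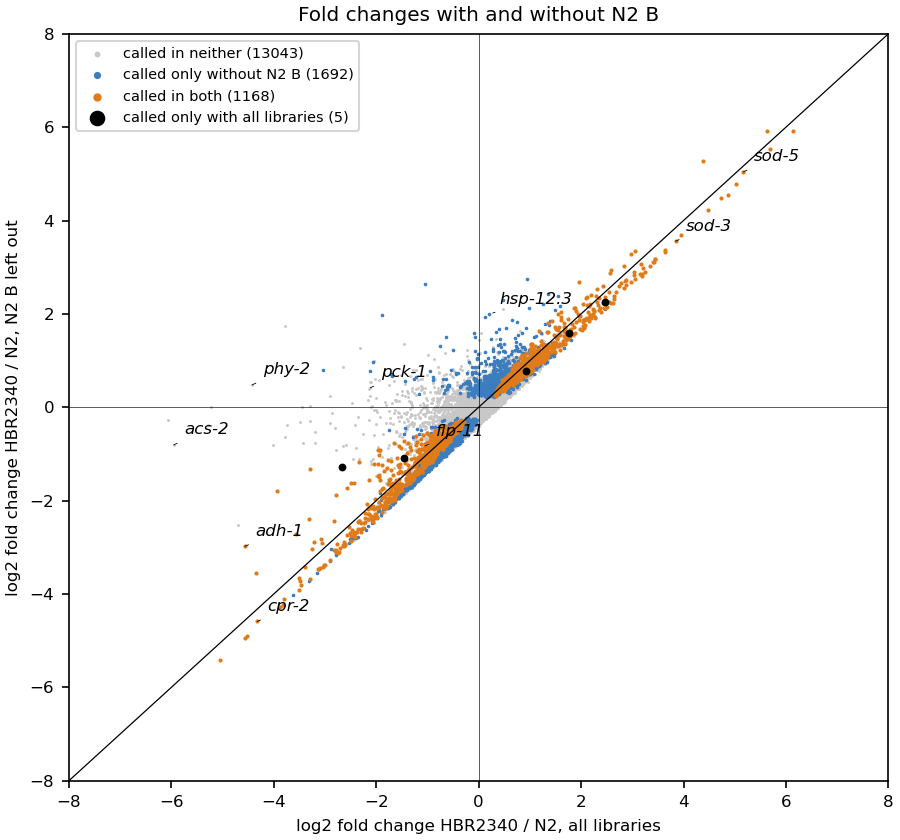
Log2 fold change of HBR2340 over N2 for every gene tested in both fits, with all libraries on the horizontal axis and with N2 B left out on the vertical axis. Orange points are the 1168 genes called in both fits in the same direction, blue points 1692 of the 1712 called only without N2 B (the other 20 were not tested with all libraries), black points the 5 called only with all libraries and grey points the rest; genes such as acs-2 and pck-1 far left of the diagonal are those with very high N2 B values.

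The labelled gene flp-11 (WBGene00001454, chromosome X, 4677334 to 4678129, minus strand) was lower in HBR2340 in every library. It had 211, 367, 231.2 and 206 CPM in the N2 libraries A to D and 108, 113, 128 and 142 CPM in HBR2340 A to D, so that the highest HBR2340 value lay below the lowest N2 value and N2 B was the highest of all. The log2 fold change was −1.05 ± 0.18 with all libraries (edgeR adjusted p = 0.00368) and −0.83 ± 0.10 without N2 B (edgeR adjusted p = 0.000238). PHX2193 had 21.1 ± 1.88 CPM (mean ± SD, n = 4). The gene unc-58 (WBGene00006792, chromosome X, 10104610 to 10133182, minus strand), which encodes a two-pore-domain channel, had 29.01, 27.2, 29.7 and 22.9 CPM in the N2 libraries A to D and 58.9, 54.8, 69.3 and 62.4 CPM in HBR2340 A to D. Both groups were tight and apart, and the fold change of 1.17 ± 0.12 was nearly the same without N2 B (1.16 ± 0.13). Of 23 genes listed for RIS and GABA neurons, 2 were higher and 2 lower, flp-11 among the latter. Besides flp-11 these were ttr-39, a transthyretin-related gene (1.66 ± 0.15), the mechanosensitive channel gene pezo-1 (0.47 ± 0.13) and, lower, the peptide receptor gene npr-38 (−0.69 ± 0.14). The ttr-39 level was 21.7, 27.7, 25.7 and 22.5 CPM in the N2 libraries A to D and 65.4, 63.2, 103.2 and 76.4 CPM in HBR2340 A to D, roughly uniform in N2 and highest in HBR2340 C.

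Body wall muscle genes were the tissue group with the largest share of higher genes among the lists that describe a tissue. The sarcomere is the contractile unit of striated muscle, built from myosin thick filaments and actin thin filaments that carry tropomyosin, troponin and calponin-like proteins. Of 35 sarcomere genes tested, 14 were higher in HBR2340 and none lower, with a median log2 fold change of 0.35 beside −0.04 over all genes. Without N2 B 16 were higher and 1 lower, with a median of 0.52. N2 B itself was high for this list, by a median log2 ratio of 0.34 to the other N2 libraries, so leaving it out widened the difference. With each library left out in turn the number higher was 11 to 16. In a bulk sample, a change in the number of cells of a type and a change in RNA per cell cannot be told apart.

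The thick filament genes were among the most abundant genes called. The myosin heavy chain gene unc-54 (WBGene00006789, chromosome I, 14855901 to 14863482, minus strand) had 3676, 6549, 4086 and 3380 CPM in the N2 libraries A to D and 8091, 7778, 9068 and 8468 CPM in HBR2340 A to D. N2 B came close to HBR2340 here without reaching it, and the fold change was 0.92 ± 0.25 with all libraries (edgeR adjusted p = 0.0432) and 1.15 ± 0.22 without N2 B (edgeR adjusted p = 0.00311). The second body wall myosin gene myo-3 had 962, 1925, 1057 and 857 CPM in the N2 libraries A to D and 2645, 2469, 2332 and 2254 CPM in HBR2340 A to D. Its fold change was 1.01 ± 0.26, and 1.32 ± 0.20 without N2 B. Paramyosin, the core protein of the thick filament encoded by unc-15, had 1384, 1772, 1502 and 1130 CPM in the N2 libraries A to D and 3029, 2984, 3055 and 2880 CPM in HBR2340 A to D (fold change 1.05 ± 0.17). In unc-54, myo-3 and unc-15 the 4 HBR2340 libraries lay close together and above every N2 library. The calls of unc-54 and myo-3 were lost when any 1 library other than N2 B was left out (edgeR adjusted p from 0.0812 to 0.117 for unc-54 and from 0.0703 to 0.0992 for myo-3).

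The largest differences of the list were in thin filament genes. The calponin-like gene cpn-3 (WBGene00000779, chromosome I, 3987940 to 3988699, plus strand) had 69.0, 46.1, 61.3 and 72.7 CPM in the N2 libraries A to D and 341, 292, 275 and 265 CPM in HBR2340 A to D, with N2 B the lowest. Its fold change of 2.23 ± 0.20 (edgeR adjusted p = 6.17e-05) was the largest of the 35 genes. The troponin T gene tnt-2 (WBGene00006587, chromosome X, 8721546 to 8723550, minus strand) had 54.1, 31.2, 55.1 and 60.1 CPM in the N2 libraries A to D and 219, 202, 222 and 198 CPM in HBR2340 A to D. HBR2340 lay far above N2 in every library. Its fold change was 2.07 ± 0.18, and 1.88 ± 0.11 without N2 B. A second troponin T gene, mup-2, had 391, 503, 416 and 329 CPM in the N2 libraries A to D and 870.5, 861, 922 and 891 CPM in HBR2340 A to D (fold change 1.11 ± 0.17). The troponin I gene tni-1 rose by 1.003 ± 0.10, the tropomyosin gene lev-11 by 0.87 ± 0.13, the actin gene act-4 by 1.05 ± 0.22, and the calponin-repeat genes clik-1 and unc-87 by 1.09 ± 0.15 and 1.02 ± 0.16. Another troponin I gene, tni-3, did not follow. It had 17.5, 13.5, 19 and 13.5 CPM in the N2 libraries A to D and 13.9, 11.7, 13 and 11.3 CPM in HBR2340 A to D, groups that overlapped, and was called lower only without N2 B (−0.44 ± 0.14, edgeR adjusted p = 0.0458).

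Muscle pulls on the cuticle through dense bodies and M lines, which are built on integrin, and through hemidesmosomes of the overlying epidermis. Of 22 attachment genes, 6 were higher and none lower in HBR2340, and 7 were higher without N2 B. The number was 4 without any other library. On the muscle side these were the α-integrin gene pat-2 (0.70 ± 0.13), the kindlin gene unc-112 (0.83 ± 0.11) and the vinculin gene deb-1 (0.82 ± 0.14). The unc-112 level was 56.8, 41.8, 50.1 and 53.3 CPM in the N2 libraries A to D and 98.02, 90.1, 86.3 and 85.5 CPM in HBR2340 A to D. On the epidermal side were mup-4 and let-805, transmembrane proteins of the hemidesmosome, and the spectraplakin gene vab-10 (0.53 ± 0.14). The mup-4 level was 28.6, 48.5, 27.4 and 26.3 CPM in the N2 libraries A to D and 100.1, 98.1, 88.8 and 79.7 CPM in HBR2340 A to D, which made N2 B the highest N2 library and left a gap to HBR2340. Its fold change was 1.49 ± 0.20 with all libraries and 1.73 ± 0.13 without N2 B. The let-805 level was 506, 653, 424 and 371 CPM in the N2 libraries A to D and 828, 835, 776 and 733 CPM in HBR2340 A to D (fold change 0.70 ± 0.17). The intermediate filament gene mua-6, which acts in the epidermis at the same attachment, had 1.70 to 4.43 CPM in N2 and 10.4 to 15.3 CPM in HBR2340 (fold change 2.10 ± 0.30).

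**Figure D2:**
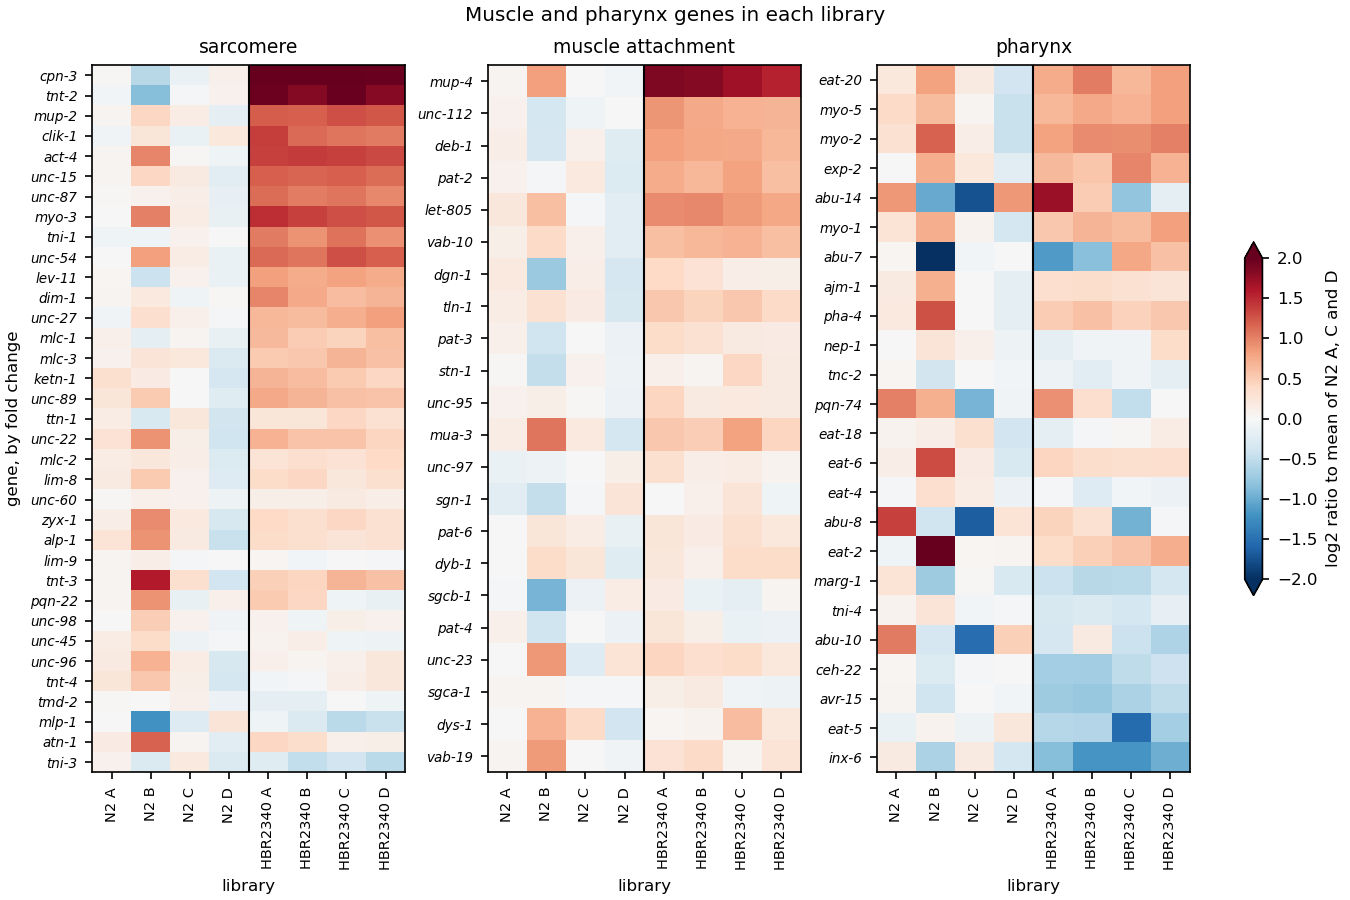
Log2 ratio of each library to the mean of N2 A, C and D for every tested gene of the sarcomere, attachment and pharynx lists, 1 row a gene and 1 column a library. The HBR2340 columns are mostly red in the sarcomere and attachment blocks and mixed in the pharynx block, and the N2 B column differs from the other N2 columns in all 3 blocks.

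In the basement membrane list 2 of 27 were higher, the perlecan gene unc-52 (1.29 ± 0.15) and the nidogen gene nid-1 (0.77 ± 0.18), and 2 were lower, the glypican genes gpn-1 (−1.76 ± 0.27) and lon-2 (−0.71 ± 0.10). The counts without N2 B were 4 and 2. The gpn-1 level was 4.91, 2.21, 4.22 and 3.78 CPM in the N2 libraries A to D and 1.18, 0.897, 1.02 and 1.38 CPM in HBR2340 A to D, with no overlap. None of 31 genes for muscle excitation and calcium handling and none of 7 muscle transcription factor genes was called by edgeR with all libraries (7 and 1 at an unadjusted p under 0.05, 1 of each by DESeq2 and none by limma-voom). Without N2 B the calsequestrin gene csq-1 and the IP3 receptor gene itr-1 were called higher (0.90 ± 0.10 and 0.40 ± 0.10). The csq-1 level was 157, 479, 186.3 and 169.7 CPM in the N2 libraries A to D and 326, 293, 319.7 and 349 CPM in HBR2340 A to D. Here N2 B alone lay above every HBR2340 library while N2 A, C and D lay below, and the fold change with all libraries was 0.38 ± 0.30 (edgeR adjusted p = 0.524).

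Of the 10 markers used to check for body wall muscle, most of which are also in the sarcomere list, 8 were higher and none lower, with a summed level of 7393 to 12593 CPM in N2, highest in N2 B, and 17279.9 to 18645 CPM in HBR2340. The marker hlh-1, the transcription factor gene that specifies body wall muscle, had 13.3, 17.03, 14.4 and 12.7 CPM in the N2 libraries A to D and 13.4, 11.2, 12.11 and 11.2 CPM in HBR2340 A to D and was not called (−0.26 ± 0.13, edgeR adjusted p = 0.29). Pharyngeal muscle markers summed to 3250.2 to 8058 CPM in N2 and 6565 to 7706 CPM in HBR2340, and intestinal markers to 1325 to 2341 and 1365 to 2051 CPM. Neuron markers summed to 1088 to 1378 and 1243 to 1523 CPM, and epidermal markers to 122.3 to 152 and 119.8 to 142 CPM. In each of these 4 sets the ranges of both strains overlapped and at most 1 marker was called with all libraries. The highest pharyngeal muscle sum in N2 was that of N2 B. Without N2 B 3 of 5 pharyngeal muscle markers were higher and 1 lower, with a median of 0.50. In that fit 2 of 7 intestinal, 1 of 8 neuron and 1 of 7 epidermal markers were lower and none higher. All of these markers had more than 3 counts in at least 1 library, so muscle, pharynx, gut, epidermis and neurons are all seen in the whole-worm RNA that the labels name. Of 6 sperm markers 2 had at most 3 counts in every library.

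The pharynx, the feeding organ with its own myosins and troponins, showed few calls with all libraries. Of 24 pharynx genes none was higher and 3 were lower. The lower genes were ceh-22, the NK-2 homeobox gene of pharyngeal muscle (−0.51 ± 0.13), the innexin gene inx-6 (−0.93 ± 0.21) and the glutamate-gated chloride channel gene avr-15 (−0.56 ± 0.12). The inx-6 level was 64.7, 36.8, 65.0 and 44.7 CPM in the N2 libraries A to D and 31.8, 25.2, 25.1 and 29.02 CPM in HBR2340 A to D, with N2 B the lowest N2 library and still above all of HBR2340. Without N2 B 7 were higher and 6 lower, the pharyngeal myosin genes myo-1 (0.63 ± 0.18), myo-2 (0.87 ± 0.22) and myo-5 (0.68 ± 0.20) among the former. The myo-2 level was 2309, 4223, 2049 and 1371 CPM in the N2 libraries A to D and 3249, 3580, 3556 and 3751 CPM in HBR2340 A to D. N2 B was the highest of the 8 libraries and N2 D the lowest, and the fold change with all libraries was 0.51 ± 0.29 (edgeR adjusted p = 0.367). Pharyngeal gland phat genes had 1 of 8 higher and 1 lower. Among the glutamine- and asparagine-rich pqn and abu genes, 1 of 54 was higher and 5 were lower, and 6 and 8 without N2 B. The one higher with all libraries, pqn-62 (WBGene00004145, chromosome X, 5196110 to 5204274, plus strand), had 145, 145, 165 and 119.3 CPM in the N2 libraries A to D and 377, 383, 472 and 407 CPM in HBR2340 A to D (fold change 1.51 ± 0.17).

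The intestine of the larva takes up food, stores fat and secretes digestive enzymes. Of 37 genes listed for intestinal identity, lumen and defecation, 5 were lower and 1 was higher in HBR2340, and without N2 B 9 were lower and 3 higher. The GATA factor gene elt-2, the main regulator of intestinal genes, had 16.98, 9.93, 10.4 and 13.9 CPM in the N2 libraries A to D and 6.48, 8.27, 4.61 and 7.92 CPM in HBR2340 A to D, with no overlap (fold change −0.91 ± 0.21). The sodium-proton exchanger gene nhx-2, which acts in the uptake of peptides, had 22.8, 24.5, 20.6 and 22.5 CPM in the N2 libraries A to D and 10.98, 10.9, 6.83 and 11.7 CPM in HBR2340 A to D. Its fold change was −1.16 ± 0.17 (edgeR adjusted p = 0.00174), and HBR2340 C was the lowest library. The gut granule gene glo-3 (−1.23 ± 0.23), the intestinal intermediate filament gene ifd-2 (−1.01 ± 0.20) and the LysM domain gene lmd-5 (−1.35 ± 0.29) were also lower. The dopamine receptor gene dop-1, a member of this list and of the amine list, was higher (0.75 ± 0.17).

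Among cathepsin, aspartyl and other lysosomal protease genes 11 of 52 were lower and none was higher, with a median of −0.40. Without N2 B 18 of 53 were lower and 1 was higher. The number lower was 7 without N2 A, HBR2340 B or HBR2340 D, and 8 to 12 without any library but these and N2 B. The largest falls among them were in cathepsin B and carboxypeptidase genes. The cpr-2 level (WBGene00000782, chromosome V, 16532936 to 16534100, minus strand) was 1728, 525, 1714 and 1004 CPM in the N2 libraries A to D and 119.1, 41.5, 54.3 and 33.9 CPM in HBR2340 A to D, with a wide gap between the strains. The cpr-4 level was 51.1, 0.568, 16.9 and 13.7 CPM in the N2 libraries A to D and 1.81, 2.03, 1.06 and 0.934 CPM in HBR2340 A to D, where N2 B lay below all of HBR2340 and the other N2 libraries above (fold change −3.82 ± 0.89, edgeR adjusted p = 0.0237). The palmitoyl-protein thioesterase gene ppt-1 had 13.4, 17.7, 16.9 and 16.7 CPM in the N2 libraries A to D and 6.86, 5.30, 5.95 and 6.78 CPM in HBR2340 A to D (fold change −1.38 ± 0.13, edgeR adjusted p = 9.88e-05). The aspartyl protease gene asp-4 went the other way without N2 B (0.67 ± 0.14, edgeR adjusted p = 0.00485). The carboxypeptidase family gene pcp-2 had 16, 48.7, 11.7 and 6.22 CPM in the N2 libraries A to D and 2.58, 1.25, 1.27 and 1.87 CPM in HBR2340 A to D, where N2 B was the highest library (fold change −3.56 ± 0.58, −2.72 ± 0.37 without N2 B).

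Lectins, lysozymes and saposins are secreted largely by intestine and epidermis and are known for their part in defence against microbes. C-type lectins had 16 of 111 lower and 1 higher, with a median of −0.41, and 34 of 113 lower and 2 higher without N2 B. The number lower fell to between 4 and 8 without N2 A, N2 C or any HBR2340 library. Most of the lower lectin genes were scarce. The clec-28 level was 1.43, 1.08, 1.23 and 0.721 CPM in the N2 libraries A to D and 0.139, 0.234, 0.106 and 0.284 CPM in HBR2340 A to D (fold change −2.54 ± 0.36), and clec-80 had 3.82, 16.06, 3.65 and 3.503 CPM in the N2 libraries A to D and 1.60, 1.404, 0.81 and 0.649 CPM in HBR2340 A to D with N2 B the highest (fold change −2.58 ± 0.58, −1.72 ± 0.40 without it). The higher lectin gene was clec-198 (1.51 ± 0.23). Galectin genes had 3 of 12 higher, lec-4, lec-5 and lec-7 (0.64 ± 0.11, 1.02 ± 0.26 and 1.13 ± 0.28), and 4 lower only without N2 B. The galectin median was −0.15 with all libraries and 0.08 without N2 B. The summed level of the 12 genes was 4818 to 6011 CPM in N2 and 3390 to 4708 CPM in HBR2340. Among lysozymes ilys-4 rose, with 18.7, 37.5, 22.3 and 20.1 CPM in the N2 libraries A to D and 77.4, 85.6, 92.0 and 102.9 CPM in HBR2340 A to D, while lys-5 fell by 3.10 and lys-2 by 1.34 on the log2 scale. In lys-5 N2 B had 0.511 CPM, within the HBR2340 range of 0.211 to 0.523 CPM, and the other N2 libraries had 1.89 to 5.34 CPM. Saposin-like genes had 2 of 22 lower and none higher, spp-6 among the former (−1.57 ± 0.27), and 6 lower and 2 higher without N2 B. The thaumatin gene thn-1 was higher, with 2.39, 0.681, 4.61 and 3.67 CPM in the N2 libraries A to D and 19.8, 29.4, 26.3 and 42.5 CPM in HBR2340 A to D (fold change 3.34 ± 0.56).

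Antimicrobial peptides of the epidermis, gut and pharynx were higher more often than lower. Of 39 such genes, including fungus-induced peptides, 6 were higher and 1 was lower. The caenacin gene cnc-11 had 6.95, 9.93, 8.61 and 12.9 CPM in the N2 libraries A to D and 38.5, 40.6, 54.8 and 38.3 CPM in HBR2340 A to D (fold change 2.16 ± 0.19), and the antibacterial factor gene abf-2 had 16.02, 20.8, 14.4 and 19.4 CPM in the N2 libraries A to D and 39.7, 38.7, 33.4 and 43.1 CPM in HBR2340 A to D (fold change 1.13 ± 0.19). The fungus-induced-peptide-related genes fipr-13, fipr-23 and fipr-24 were higher at low levels, at most 6.90 CPM in any library, and members of this family are short and alike, so that counts may be shared among them. The lower gene was fip-2 (−0.87 ± 0.17). Without N2 B 9 of 41 were higher and 7 lower.

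The cuticle is secreted by the epidermis and is made mostly of collagens. With all libraries 3 of 108 cuticle collagens were higher and 4 lower, and without N2 B 17 of 110 were higher and 7 lower. Several gained collagens had high N2 B values. The col-42 level was 206, 1463, 199.9 and 316 CPM in the N2 libraries A to D and 925, 796, 678 and 753 CPM in HBR2340 A to D. The col-103 level was 69.7, 427, 81.5 and 80.1 CPM in the N2 libraries A to D and 294, 290.1, 245 and 271 CPM in HBR2340 A to D, and the col-107 level was 192, 815, 194 and 189 CPM in the N2 libraries A to D and 547, 514, 358 and 472 CPM in HBR2340 A to D. In all 3 genes N2 B lay above every HBR2340 library and the other N2 libraries lay below, and the fold changes without N2 B were 1.69 ± 0.29, 1.82 ± 0.28 and 1.28 ± 0.24. In col-160, where N2 B reached 241 CPM and HBR2340 had 69.5 to 86.6 CPM, the fold change was −0.08 ± 0.65 with all libraries and 1.52 ± 0.17 without N2 B. The collagen gene col-98 was called in both fits, with 41.6, 129, 57.6 and 53.4 CPM in the N2 libraries A to D and 222, 221, 186.3 and 198 CPM in HBR2340 A to D. Among the lower collagens, rol-6 was scarce, with 1.39, 0.17, 1.73 and 0.962 CPM in the N2 libraries A to D and 0.209, 0.078, 0.0352 and 0.162 CPM in HBR2340 A to D. The values of N2 B and of HBR2340 B and C were below the level of 3 counts, and no fold is given for it.

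Other epidermal genes gave a mixed picture. Of 48 genes for epidermis and seam identity, 1 was higher and 3 were lower, and 5 were lower without N2 B. The higher one was pcbd-1, a pterin carbinolamine dehydratase that recycles the cofactor of phenylalanine hydroxylase, with 21.97, 28.04, 30.5 and 26.3 CPM in the N2 libraries A to D and 49.9, 59.1, 69.6 and 56.3 CPM in HBR2340 A to D (fold change 1.14 ± 0.14). The phenylalanine hydroxylase gene pah-1 was lower (−0.71 ± 0.17). The cuticlin gene cut-6 (1.78 ± 0.44), the hedgehog-related gene grd-3 (2.57 ± 0.39) and the patched-related gene ptr-11 (1.12 ± 0.18) rose, and ptr-24 (−0.84 ± 0.21) fell. With all libraries each of these lists had at most 1 gene higher and 1 lower, of 35 cuticlin, 33 hedgehog-related and 26 patched-related genes. Leaving out N2 B gave 1 higher and 4 lower cuticlin genes, 5 higher and 2 lower patched-related genes and 1 higher hedgehog-related gene. Among intermediate filaments 2 of 13 were higher, mua-6 and the lamin gene lmn-1 (0.40 ± 0.09), and 1 was lower, with 4 higher without N2 B.

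Transthyretin-related genes, a nematode family of small secreted proteins, had 8 of 47 higher and 2 lower, or 13 and 4 without N2 B. The ttr-17 level (WBGene00012383, chromosome IV, 11066019 to 11067026, minus strand) was 75.9, 17.7, 107 and 129 CPM in the N2 libraries A to D and 456, 428, 442 and 407 CPM in HBR2340 A to D, where N2 B was far below the other N2 libraries (fold change 2.39 ± 0.43, 2.04 ± 0.18 without it). The ttr-25 level was 7.17, 6.92, 7.87 and 7.11 CPM in the N2 libraries A to D and 22.4, 24.3, 28.9 and 28.01 CPM in HBR2340 A to D, even within each strain (fold change 1.83 ± 0.16, edgeR adjusted p = 6.17e-05). The ttr-5 level was 31.3, 25.03, 33.1 and 35.6 CPM in the N2 libraries A to D and 74.6, 82.5, 81.2 and 68.9 CPM in HBR2340 A to D (fold change 1.295 ± 0.11). Of the lower genes ttr-28 had 3.60, 0.397, 3.07 and 6.70 CPM in the N2 libraries A to D and 1.01, 0.663, 0.915 and 0.893 CPM in HBR2340 A to D, with N2 B below all of HBR2340.

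**Figure D3:**
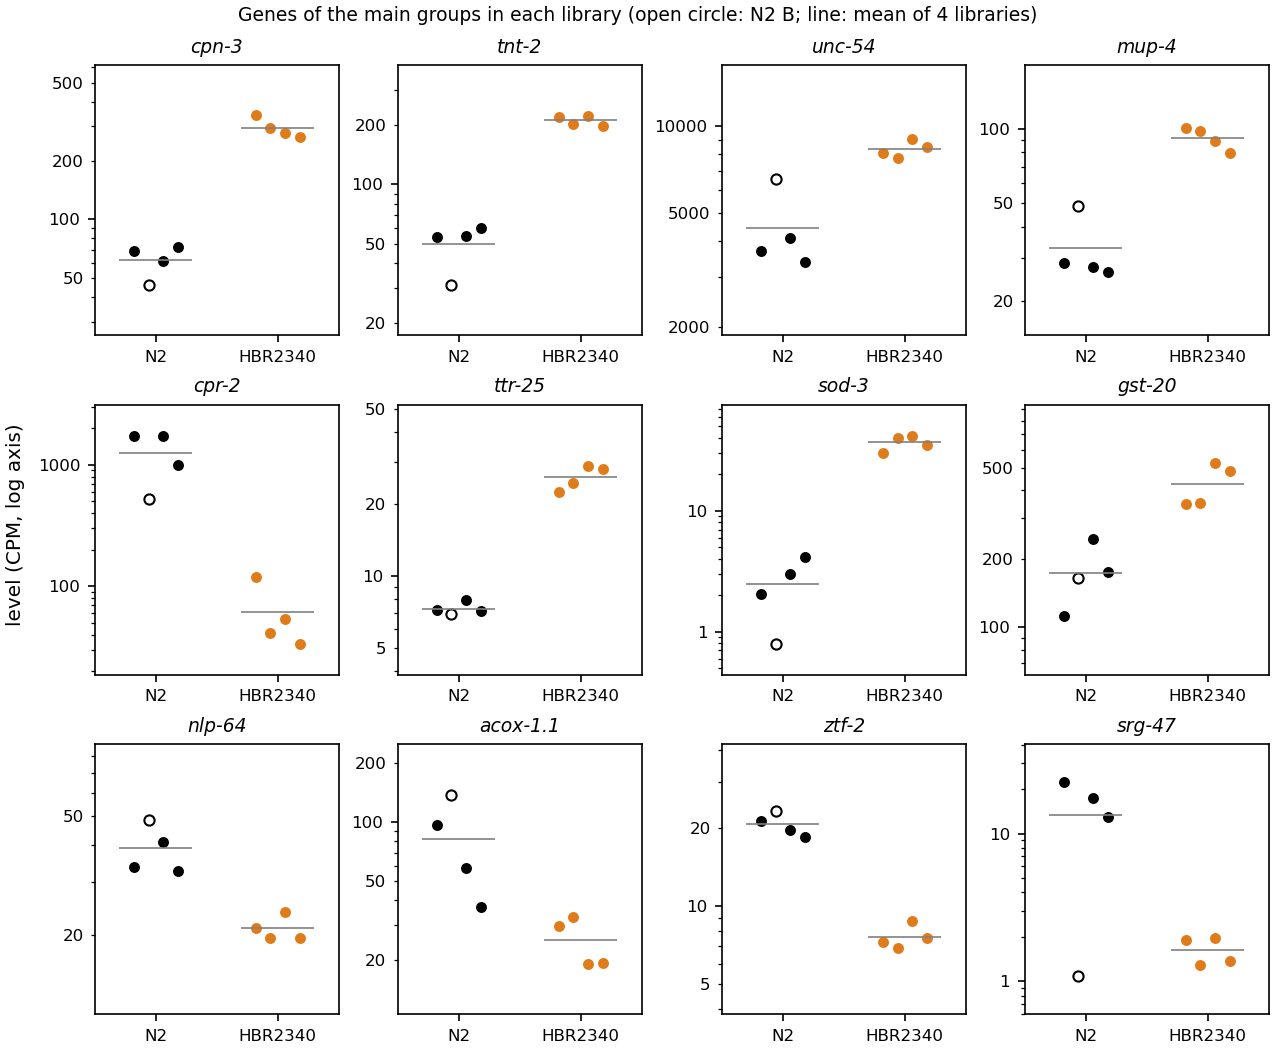
Level of 12 genes in each library, in CPM on a log axis, with N2 in black (N2 B as an open circle) and HBR2340 in orange. HBR2340 lies wholly above N2 in cpn-3, tnt-2, unc-54, mup-4, ttr-25, sod-3 and gst-20 and wholly below in cpr-2, nlp-64, acox-1.1 and ztf-2, while in srg-47 N2 B lies below the HBR2340 libraries and the other N2 libraries above.

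Genes found in all neurons changed little. Of 37 pan-neuronal genes none was higher and 1 was lower with all libraries, the stomatin gene sto-1 (−0.70 ± 0.19), and cilia genes had 1 higher and 1 lower of 62. The counts without N2 B were 1 higher and 2 lower pan-neuronal genes, and 4 higher and 1 lower cilia genes. Of 72 neuropeptide-like genes 17 were lower and 2 higher, and of 29 FMRFamide-like genes other than flp-11 3 were lower and none higher. Without N2 B the counts were 19 lower and 5 higher, and 4 lower and none higher. The number of neuropeptide-like genes lower was 10 or 11 without HBR2340 A, B or D. The most abundant of the lower genes was nlp-49, with 502, 734, 675 and 669.5 CPM in the N2 libraries A to D and 392, 377, 378 and 415 CPM in HBR2340 A to D (fold change −0.73 ± 0.14). The nlp-12 gene, a cholecystokinin-like peptide of the stretch-sensing neuron DVA, had 85.7, 111, 121.8 and 86 CPM in the N2 libraries A to D and 58.5, 56.8, 51.8 and 59.96 CPM in HBR2340 A to D (fold change −0.83 ± 0.13). The nlp-64 level was 33.9, 48.5, 41.05 and 32.8 CPM in the N2 libraries A to D and 21.1, 19.5, 23.9 and 19.6 CPM in HBR2340 A to D (fold change −0.89 ± 0.13), and capa-1, a neuromedin U-like peptide, had 45.2, 49.8, 49.6 and 51.2 CPM in the N2 libraries A to D and 29.2, 27.7, 33.4 and 32.9 CPM in HBR2340 A to D (fold change −0.67 ± 0.12). In nlp-49, nlp-12, nlp-64 and capa-1 no HBR2340 library overlapped N2. The flp-8 gene fell by 0.77 and by 0.56 without N2 B, which had the highest level of it.

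Receptors for these peptides had 7 of 102 lower and 1 higher, or 11 and 2 without N2 B. The myosuppressin-like receptor gene dmsr-12 was lower (−1.64 ± 0.36), as were gnrr-3 (−1.34 ± 0.32) and npr-22 (−0.61 ± 0.15), and dmsr-8 was higher (0.69 ± 0.15). For small transmitters, the tyrosine decarboxylase gene tdc-1 had 14.3, 18.6, 13.5 and 13.6 CPM in the N2 libraries A to D and 9.76, 9.09, 8.48 and 9.50 CPM in HBR2340 A to D (fold change −0.70 ± 0.13). The acetylcholinesterase gene ace-1 (−0.52 ± 0.12) and the vesicular glutamate transporter family gene vglu-2 (−1.17 ± 0.27) were lower too. Of 38 genes for amine and acetylcholine transmission, 3 were lower and 1 was higher, and 6 and 2 without N2 B.

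Ion channels moved both ways. Of 75 potassium, calcium and sodium-leak channel genes 5 were higher and 2 lower, and 8 and 4 without N2 B. The higher ones with all libraries besides unc-58 were the two-pore-domain genes twk-13, twk-17 and twk-49 (0.64 ± 0.17, 0.83 ± 0.17 and 0.63 ± 0.14) and the inward rectifier gene irk-1 (0.70 ± 0.15). The lower ones were twk-21 (−2.42 ± 0.49) and twk-22 (−1.83 ± 0.33). Among degenerins the motor neuron gene del-1 (1.302 ± 0.28), asic-1 (0.82 ± 0.21) and the muscle gene unc-105 (0.79 ± 0.13) were higher, and del-10 had 14.6, 16.3, 11.4 and 8.35 CPM in the N2 libraries A to D and 4.22, 4.52, 5.07 and 5.72 CPM in HBR2340 A to D (fold change −1.37 ± 0.21). Of 108 ligand-gated channel genes 3 were higher and 4 lower, and 6 and 10 without N2 B, the NMDA receptor gene nmr-1 with 3.995, 3.12, 4.85 and 3.37 CPM in the N2 libraries A to D and 7.56, 8.503, 14.7 and 9.26 CPM in HBR2340 A to D being the largest rise (1.38 ± 0.24). The innexin gene inx-3 had 11.9, 19.4, 6.53 and 16.14 CPM in the N2 libraries A to D and 5.30, 4.10, 3.52 and 3.21 CPM in HBR2340 A to D (fold change −1.74 ± 0.28).

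Chemoreceptor genes, a large family of receptors in sensory neurons, had 12 of 456 higher and 20 lower. Without N2 B 22 of 506 were higher and 55 lower. N2 B was low for them, with a median log2 ratio of −0.84 to the other N2 libraries. The srg-47 level (WBGene00005204, chromosome V, 14554980 to 14556287, minus strand) was 22.4, 1.08, 17.3 and 12.9 CPM in the N2 libraries A to D and 1.92, 1.29, 1.97 and 1.38 CPM in HBR2340 A to D, and sri-4 had 5.78, 0.284, 4.41 and 4.22 CPM in the N2 libraries A to D and 0.244, 0.507, 0.352 and 0.406 CPM in HBR2340 A to D. N2 B lay below HBR2340 in srg-47 and within its range in sri-4, and the other 3 N2 libraries were far above in both. The fold changes were −3.03 ± 0.62 and −3.29 ± 0.66, and −3.42 ± 0.26 and −3.68 ± 0.34 without N2 B. In the other direction srbc-16 had 0.478, 0.341, 0.795 and 1.06 CPM in the N2 libraries A to D and 4.01, 4.80, 9.05 and 4.79 CPM in HBR2340 A to D (fold change 3.04 ± 0.39). Soluble guanylate cyclases act in the oxygen-sensing neurons, and of those gcy-34 was higher, with 4.39, 4.71, 5.73 and 3.81 CPM in the N2 libraries A to D and 10.8, 10.02, 11.4 and 9.58 CPM in HBR2340 A to D, while gcy-36 was lower, with 8.60, 8.34, 10.4 and 8.28 CPM in the N2 libraries A to D and 5.16, 4.52, 4.40 and 4.71 CPM in HBR2340 A to D. Neither gcy-34 nor gcy-36 overlapped between strains, and the fold changes were 1.16 ± 0.16 and −0.92 ± 0.15. Over 33 guanylate cyclase genes 3 were higher and 1 lower, and 5 and 2 without N2 B.

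Insulin-like signalling genes changed in parts. In the insulin and growth core list 4 of 43 were higher and 1 was lower, and 7 and 1 without N2 B. The kinase gene pdk-1 had 21.4, 39.8, 22.8 and 20.7 CPM in the N2 libraries A to D and 47.7, 44.6, 48.3 and 42.4 CPM in HBR2340 A to D and akt-1 had 158, 179, 159 and 144 CPM in the N2 libraries A to D and 212, 209, 238 and 226 CPM in HBR2340 A to D, and neither overlapped between strains. The rapamycin-insensitive companion gene rict-1 rose by 0.49 ± 0.09. The AMP-activated kinase gene aak-1 had 145, 357, 142 and 135 CPM in the N2 libraries A to D and 91.0, 98.2, 105.2 and 94.7 CPM in HBR2340 A to D, with N2 B far above the other N2 libraries (fold change −1.001 ± 0.27, −0.55 ± 0.08 without it). The receptor gene daf-2 and the FOXO gene daf-16, added here after their values were seen, were not called (0.22 ± 0.16 and 0.15 ± 0.13, edgeR adjusted p = 0.497 and 0.573). Of the ligands, 1 of 24 insulin-like genes was higher, ins-10 (1.18 ± 0.16), and 1 was lower, daf-28 (−1.03 ± 0.27). The counts without N2 B were 2 higher and 4 lower, ins-11 (−2.47 ± 0.34) and ins-20 (−3.71 ± 0.90) among the lower. N2 B had 0.17 CPM of ins-11 and 0.17 CPM of ins-20, against 4.30 to 6.38 and 1.998 to 22.3 CPM in the other N2 libraries.

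Genes that DAF-16 raises in textbook accounts had 7 of 34 higher and 2 lower, and 13 and 5 without N2 B. Their median was −0.01 with all libraries, with 17 of the 34 above 0, and 0.36 without N2 B. Genes that DAF-16 lowers had none of 17 higher and 1 lower, and 4 of 18 lower without N2 B. The medians of this second list were −0.70 and −0.44. In small heat shock genes the result rested on 1 library. The hsp-12.3 level was 78.8, 1024, 94.4 and 104.99 CPM in the N2 libraries A to D and 415, 373, 374 and 331 CPM in HBR2340 A to D. N2 A, C and D lay below every HBR2340 library and N2 B above, and the fold change was 0.20 ± 0.72 with all libraries and 1.99 ± 0.26 without N2 B (edgeR adjusted p = 0.00048). In hsp-12.6 N2 B had 664 CPM, the other N2 libraries 189 to 262 and HBR2340 437 to 682 CPM, and the fold change without N2 B was 1.21 ± 0.21. The late embryogenesis abundant gene lea-1 was called in both fits, with 235.3, 368, 272 and 238 CPM in the N2 libraries A to D and 619, 831, 1365 and 934 CPM in HBR2340 A to D.

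Genes for defence against superoxide and peroxide were called in both directions, more of them higher. Of 41 genes for superoxide, peroxide and thiol defence 8 were higher and 2 lower, and 10 and 5 without N2 B. The manganese superoxide dismutase gene sod-3 had 2.04, 0.795, 2.99 and 4.16 CPM in the N2 libraries A to D and 30.2, 39.98, 41.8 and 35.2 CPM in HBR2340 A to D (fold change 3.85 ± 0.37, edgeR adjusted p = 0.000116). The copper/zinc enzyme gene sod-5 had 4.86, 3.86, 4.63 and 7.38 CPM in the N2 libraries A to D and 84.1, 189, 297 and 181 CPM in HBR2340 A to D, where HBR2340 A was the lowest of its strain and still far above N2 (fold change 5.17 ± 0.41). The major isoforms sod-1 and sod-2, named after their values were seen, had 57.5, 59.7, 59.6 and 58.9 and 22.5, 23.3, 24.5 and 30.7 CPM in N2 A to D, and their fold changes were 0.20 ± 0.09 and 0.22 ± 0.13 (edgeR adjusted p = 0.224 and 0.389). Of 4 dauer markers sod-3 was the only 1 with enough counts to be tested, and the collagen and cuticlin genes col-2, col-40 and cut-1 had at most 0.908 CPM in any library. The catalase gene ctl-3 rose, with 3.78, 1.99, 3.13 and 3.02 CPM in the N2 libraries A to D and 7.42, 10.5, 12.07 and 8.77 CPM in HBR2340 A to D, while ctl-1 and ctl-2, also outside the rule, had fold changes of 0.26 ± 0.25 and −0.36 ± 0.29 that did not pass. The glutathione peroxidase genes gpx-2, gpx-5 and gpx-6 rose by 0.98 ± 0.15, 0.73 ± 0.16 and 1.14 ± 0.17. The metallothionein gene mtl-1 had 98.5, 140.1, 113 and 111.8 CPM in the N2 libraries A to D and 247, 262, 209 and 216 CPM in HBR2340 A to D (fold change 1.01 ± 0.17), while mtl-2 had 67.6, 19.7, 73.7 and 62.3 CPM in the N2 libraries A to D and 46.9, 53.1, 34.98 and 36.9 CPM in HBR2340 A to D and was called lower only without N2 B (−0.67 ± 0.13).

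Among enzymes that conjugate and oxidise foreign compounds, the glutathione S-transferase and cytochrome P450 lists had more genes higher than lower in both fits. Glutathione S-transferases had 5 of 45 higher and none lower, and 7 higher and 5 lower without N2 B, in which this list was low by a median log2 ratio of −0.72. The gst-15 level was 13.4, 4.31, 17.6 and 16.3 CPM in the N2 libraries A to D and 42.3, 53.5, 63.5 and 54.1 CPM in HBR2340 A to D. The gst-20 level was 111.8, 165, 244 and 174 CPM in the N2 libraries A to D and 346, 349, 523 and 484 CPM in HBR2340 A to D (fold changes 2.04 ± 0.37 and 1.29 ± 0.27). Cytochrome P450 genes had 8 of 62 higher and 3 lower, and 11 higher and 8 lower without N2 B. The number higher was 4 or 5 without N2 A, N2 D or any HBR2340 library. The cyp-13B1 level was 3.04, 4.995, 4.55 and 7.83 CPM in the N2 libraries A to D and 16.52, 18.18, 26.4 and 19.9 CPM in HBR2340 A to D (fold change 1.98 ± 0.28), and cyp-34A7 was lower (−1.56 ± 0.29). UDP-glucuronosyltransferases had 3 of 56 higher and 4 lower, led by ugt-12 (2.07 ± 0.54), ugt-6 (1.87 ± 0.38) and, lower, ugt-47 (−1.88 ± 0.48), and the counts without N2 B were 8 and 7. ABC transporters had none of 47 higher and 4 lower, pgp-13 among them (−2.15 ± 0.55), and 1 higher and 10 lower without N2 B. Short-chain and alcohol dehydrogenases had 2 of 38 higher and 2 lower, and 7 and 4 without N2 B. Several gst, cyp and ugt genes lie in clusters of similar copies, and how the authors' counting split reads among them is not stated in the labels.

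Central metabolic lists moved with N2 B. Of 26 HIF-1 pathway and hypoxia response genes 1 was lower and none higher with all libraries, with a median of −0.42. Without N2 B 4 were higher and 2 lower, with a median of 0.16. Glycolysis had 1 of 25 higher and 2 lower with a median of −0.51, then 7 higher and 2 lower with a median of 0.16. Gluconeogenesis with the glyoxylate cycle and trehalose had 1 of 20 higher and 1 lower, then 6 and 2. In these 3 lists and the citrate cycle N2 B lay above the other N2 libraries by median log2 ratios of 1.96, 1.204, 1.23 and 1.21. Among lists with at least 10 tested genes these 4 had the largest moves of their medians when N2 B was left out.

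The phosphoenolpyruvate carboxykinase gene pck-2 had 878, 4782, 877 and 831 CPM in the N2 libraries A to D and 1930, 2005, 1553 and 1715 CPM in HBR2340 A to D. N2 A, C and D were close together and below every HBR2340 library and N2 B was above them all, and the fold change was −0.03 ± 0.50 with all libraries and 1.05 ± 0.15 without N2 B (edgeR adjusted p = 0.00064). The second such gene, pck-1, had 491, 10091, 619 and 376 CPM in the N2 libraries A to D and 859, 584, 679 and 549 CPM in HBR2340 A to D. It was called in neither fit (−2.12 ± 0.97 and, without N2 B, 0.42 ± 0.45). The aldolase gene aldo-2 had 1588, 5839, 1740 and 1369 CPM in the N2 libraries A to D and 2430, 2301, 2051 and 2352 CPM in HBR2340 A to D and was called higher only without N2 B (0.53 ± 0.15). The hexokinase gene hxk-1 was lower in both fits, with 63.1, 97.7, 48.4 and 64.5 CPM in the N2 libraries A to D and 34.3, 30.5, 28.6 and 29.2 CPM in HBR2340 A to D (fold changes −1.16 ± 0.18 and −0.95 ± 0.12). The alcohol dehydrogenase gene adh-1 (WBGene00010790, chromosome V, 11888248 to 11889650, plus strand) had 269.98, 1266, 96.9 and 50.7 CPM in the N2 libraries A to D and 29.6, 21.1, 7.78 and 12.62 CPM in HBR2340 A to D. Its N2 libraries spanned a wide range, all above HBR2340, and the fold change moved from −4.56 ± 0.94 to −2.98 ± 0.63 without N2 B.

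The genes whose fold change moved most when N2 B was left out were acs-2, phy-2, F22B5.4, C56E6.2 and mlt-10. The acyl-CoA synthetase gene acs-2 had 3.86, 384, 1.65 and 2.71 CPM in the N2 libraries A to D and 2.40, 1.64, 1.37 and 0.852 CPM in HBR2340 A to D, and the fold change went from −5.95 ± 1.67 to −0.80 ± 0.38 (edgeR adjusted p = 0.0521 and 0.173). The collagen prolyl hydroxylase gene phy-2 had 5.78, 662, 5.90 and 5.15 CPM in the N2 libraries A to D and 12.96, 6.71, 5.77 and 6.17 CPM in HBR2340 A to D, and egl-9, the prolyl hydroxylase that marks HIF-1 for destruction, had 54.2, 1181, 58.3 and 47.7 CPM in the N2 libraries A to D and 95.9, 72.5, 90.4 and 70.9 CPM in HBR2340 A to D. The isocitrate lyase gene icl-1, of the glyoxylate cycle, had 151, 1744, 37.3 and 43.5 CPM in the N2 libraries A to D and 77.6, 50.8, 25.1 and 30.2 CPM in HBR2340 A to D. In acs-2, phy-2 and icl-1 the values of N2 A, C and D overlapped those of HBR2340, while in egl-9 they lay below. None of the 4 genes was called in either fit.

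**Figure D4:**
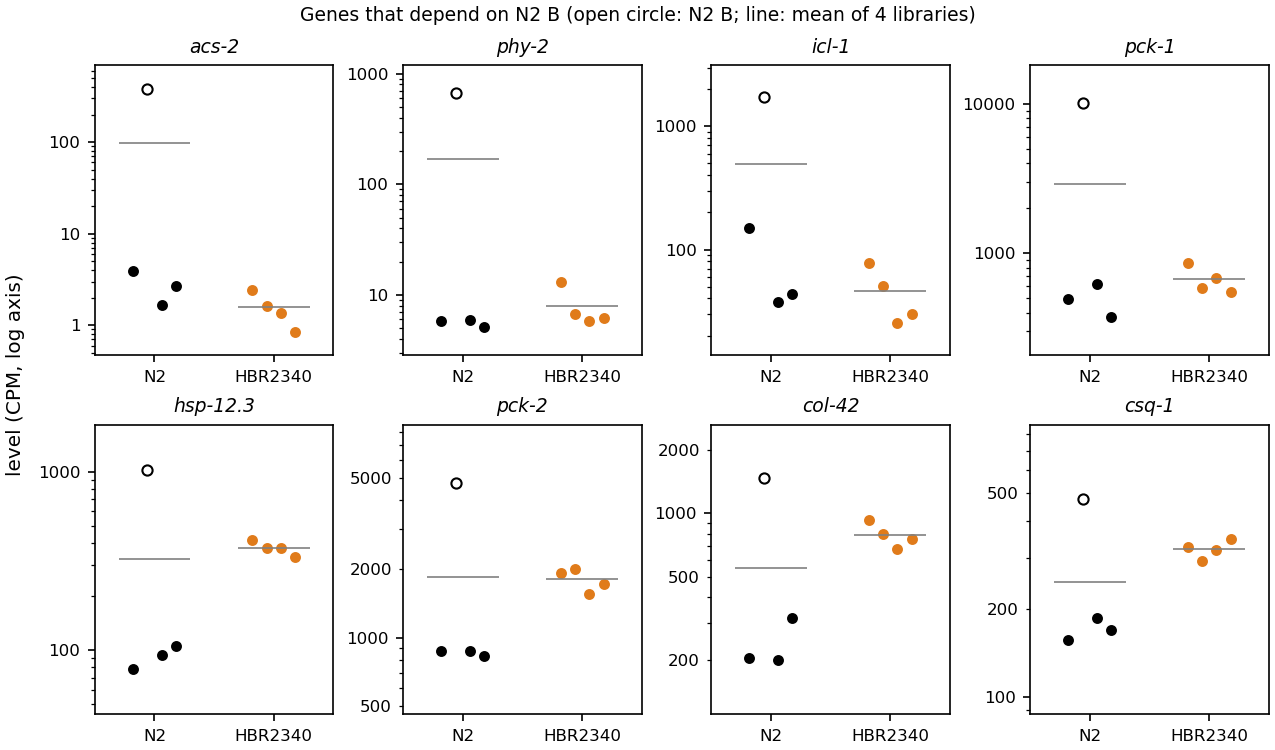
Level of 8 genes in each library, in CPM on a log axis, with N2 in black (N2 B as an open circle) and HBR2340 in orange. In acs-2, phy-2, icl-1 and pck-1 the other N2 libraries overlap HBR2340, while in hsp-12.3, pck-2, col-42 and csq-1 they lie below all 4 HBR2340 libraries and N2 B lies above.

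Several genes of peroxisomal fat metabolism were lower. Of 80 fatty acid oxidation and acyl-CoA genes 6 were lower and 2 higher, or 18 and 6 without N2 B. The peroxisomal acyl-CoA oxidase genes acox-1.1 and acox-1.2, which shorten side chains of ascaroside pheromones, were both lower. The first had 96.4, 138, 58.3 and 37.2 CPM in the N2 libraries A to D and 29.6, 33.04, 19.04 and 19.2 CPM in HBR2340 A to D, and acox-1.2 had 15.3, 17.5, 10.8 and 6.87 CPM in the N2 libraries A to D and 4.81, 5.69, 3.20 and 3.53 CPM in HBR2340 A to D. Neither overlapped between strains, and the fold changes were −1.71 ± 0.35 and −1.54 ± 0.30. The maoc-1 gene of the same pathway fell by 0.83, and the peroxin genes prx-11 and prx-12 by 0.77 and 0.56. One acyl-CoA synthetase gene was higher, acs-21, with 10.5, 2.84, 10.4 and 10.1 CPM in the N2 libraries A to D and 32.96, 50.04, 69.1 and 46.03 CPM in HBR2340 A to D (fold change 2.54 ± 0.34). The lipin gene lpin-1, which makes diacylglycerol, had 546, 1342, 506 and 472 CPM in the N2 libraries A to D and 366, 331, 325 and 337 CPM in HBR2340 A to D (fold change −1.08 ± 0.28, −0.60 ± 0.09 without N2 B).

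Amino acid and one-carbon genes had 3 of 61 higher and 6 lower, or 9 and 8 without N2 B. The lower genes included enzymes that break amino acids down. The histidine ammonia-lyase gene haly-1 had 402, 389, 408 and 288 CPM in the N2 libraries A to D and 212, 194, 174 and 191 CPM in HBR2340 A to D (fold change −0.95 ± 0.14). The tyrosine aminotransferase gene tatn-1 had 258, 200.4, 155 and 189 CPM in the N2 libraries A to D and 135, 99.8, 82.9 and 115 CPM in HBR2340 A to D (fold change −0.89 ± 0.18), and the branched-chain aminotransferase gene bcat-1 had 546, 296, 438 and 433 CPM in the N2 libraries A to D and 279, 279, 256 and 281 CPM in HBR2340 A to D (fold change −0.65 ± 0.15). The groups did not overlap in any of the 3 genes. The transsulfuration genes cbs-1 and cth-2 fell by 0.95 and 0.88. The asparagine synthetase gene asns-2 was higher, with 2.61, 2.67, 4.33 and 15.7 CPM in the N2 libraries A to D and 30.6, 25.6, 35.97 and 28.01 CPM in HBR2340 A to D, where N2 D was well above the other N2 libraries (fold change 2.23 ± 0.53).

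Few mitochondrial genes were called. Of 12 mitochondrially encoded protein genes 1 was higher with all libraries and 2 without N2 B, and between 0 and 3 with each library left out in turn. The median was 0.92 and 0.96. The share of counts on mitochondrial DNA was 0.468% to 0.962% in N2 and 1.11% to 1.44% in HBR2340, without overlap. Nuclear respiratory chain genes had 1 of 62 lower and none higher, with a median of −0.08. Their counts without N2 B were 5 higher and 2 lower, and the median turned to 0.13. Mitochondrial ribosomal protein genes had 1 higher and 2 lower of 66, and 5 and 3 without N2 B. Among carriers the ADP/ATP carrier gene ant-1.2 was higher, with 0.13, 0.0568, 0.192 and 0.343 CPM in the N2 libraries A to D and 3.83, 6.63, 9.15 and 5.89 CPM in HBR2340 A to D, and so was letm-1, with 54.5, 54.4, 46.7 and 43.96 CPM in the N2 libraries A to D and 73.97, 75.2, 76.1 and 74.1 CPM in HBR2340 A to D (fold change 0.59 ± 0.09). N2 values of ant-1.2 were near the level that 3 counts make, which was 0.0823 to 0.17 CPM in these libraries, and no fold is given for it.

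Translation and general protein turnover gave almost no calls. None of 81 cytosolic ribosomal protein genes was called in either fit by edgeR, and with all libraries 1 had an unadjusted p under 0.05 and none was called by DESeq2 or limma-voom. Of 35 translation factor genes 1 was higher, eif-3.F (0.45 ± 0.11). None of 32 tRNA synthetase, 36 proteasome, 34 autophagy or 21 vacuolar ATPase genes was called by edgeR with all libraries (0, 0, 4 and 0 at an unadjusted p under 0.05, 1 autophagy gene by DESeq2 and none by limma-voom). Leaving out N2 B gave 3 higher tRNA synthetase genes, 1 higher proteasome gene, 1 higher and 1 lower autophagy genes and 1 higher vacuolar ATPase gene. Cytosolic chaperones had none of 37 called by edgeR with all libraries (3 at an unadjusted p under 0.05, 2 in DESeq2 and 1 in limma-voom) and 4 higher without N2 B. One of these is hsp-70, with 8.69, 73.2, 15.1 and 15.7 CPM in the N2 libraries A to D and 51.6, 62.02, 109 and 63.3 CPM in HBR2340 A to D (fold change 2.42 ± 0.28 without N2 B). F-box, MATH, BTB and SKR genes, adaptors of ubiquitin ligases, had 7 of 263 lower and 4 higher, and 43 of 275 and 9 without N2 B.

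Among regulators of transcription, nuclear hormone receptors had 9 of 216 lower and 5 higher, and 40 and 10 without N2 B. The nhr-3 level was 58.3, 33.1, 62.8 and 68.5 CPM in the N2 libraries A to D and 111.8, 119.5, 159 and 128 CPM in HBR2340 A to D. The nhr-114 level was 17.4, 12.8, 19.4 and 14.5 CPM in the N2 libraries A to D and 29.4, 30.9, 32.1 and 32.03 CPM in HBR2340 A to D, and both rose (1.22 ± 0.19 and 0.96 ± 0.13). The nhr-6 level was 12.25, 35.9, 10.9 and 9.20 CPM in the N2 libraries A to D and 5.96, 4.02, 3.48 and 4.87 CPM in HBR2340 A to D, with N2 B far above the other N2 libraries (fold change −1.89 ± 0.39, −1.25 ± 0.19 without it). Homeobox genes had 1 of 90 higher, pax-3 (0.87 ± 0.20), and 5 lower, ceh-1 and ceh-2 among them (−1.12 ± 0.28 and −0.87 ± 0.21). The counts without N2 B were 3 higher, the posterior Hox gene nob-1 among them (0.94 ± 0.11), and 8 lower. Of the other transcription factor families 4 of 113 were lower and none higher, and 12 lower and 5 higher without N2 B. The zinc finger gene ztf-2 (WBGene00008762, chromosome I, 7291272 to 7292991, plus strand) was lower, with 21.3, 23.3, 19.7 and 18.4 CPM in the N2 libraries A to D and 7.25, 6.90, 8.73 and 7.55 CPM in HBR2340 A to D, an even fall of 1.44 with edgeR adjusted p = 5.12e-05. The bHLH gene hlh-16 had 1.87, 1.48, 2.08 and 1.44 CPM in the N2 libraries A to D and 0.627, 0.624, 0.458 and 0.487 CPM in HBR2340 A to D (fold change −1.64 ± 0.24). Histone genes had 2 of 33 lower, hil-7 (−0.70 ± 0.15) and his-72 (−0.62 ± 0.11), and 3 lower and 1 higher without N2 B. Small RNA pathway genes had 3 of 66 higher, eri-7 (0.73 ± 0.13), rde-12 (0.59 ± 0.13) and ppw-1 (0.52 ± 0.14), and rde-4 lower (−0.75 ± 0.20), and 6 higher and 3 lower without N2 B.

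Cell cycle and replication genes had 1 of 100 called with all libraries, lig-4 (0.50 ± 0.11), which was higher, and 2 higher and 5 lower of 101 without N2 B. The cyclin-dependent kinase inhibitor gene cki-1, which holds blast cells in arrest, was called lower only without N2 B (−0.56 ± 0.11). Of 38 genes known as regulators of L1 arrest and starvation 1 was higher, the timing gene lin-46, with 3.17, 3.24, 3.02 and 3.57 CPM in the N2 libraries A to D and 6.72, 5.81, 6.97 and 6.90 CPM in HBR2340 A to D (fold change 1.02 ± 0.15), and 3 were lower. Leaving out N2 B gave 3 higher and 7 lower. The lower ones with all libraries were dbl-1, a TGF-β ligand that sets body size (−0.56 ± 0.15), lon-2, which restrains it (−0.71 ± 0.10), and the fasting-induced lipase gene fil-1 (−1.65 ± 0.23). Primordial germ cell and P granule genes had 1 of 45 higher, mes-6 (0.65 ± 0.12), whose exons overlap a gene on the same strand, and 2 lower without N2 B. The median of this list was −0.42 with all libraries and 0.05 without N2 D. The list of major sperm protein, sperm-specific and nspa, nspc and nspd peptide genes had 3 of 15 lower, and 12 lower without N2 B. Its medians were −1.26 and −1.44. The nspc class alone had 10 tested genes, with none called with all libraries and 9 lower without N2 B. N2 B was low for this list, with a median log2 ratio of −2.20, and the nspc genes in it are near-identical copies whose counts are uncertain. N2 D stood apart for germline and embryo genes. Oocyte and embryo markers summed to 15.9, 22.9, 11.8 and 69.4 CPM in the N2 libraries A to D and to 16.12 to 17.9 CPM in HBR2340. The summed germ cell markers were 21.9, 26.4, 14.4 and 55.5 CPM in the N2 libraries and 17.7 to 27.7 CPM in HBR2340.

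Membrane transport also included single large changes. Aquaporin genes had 3 of 12 higher and 1 lower, and 2 and 2 without N2 B. The aqp-2 level was 389.7, 230.1, 389 and 342 CPM in the N2 libraries A to D and 616, 559.7, 577 and 533 CPM in HBR2340 A to D. The aqp-6 level was 8.16, 4.37, 10.9 and 10.03 CPM in the N2 libraries A to D and 19.9, 22, 32.1 and 25.7 CPM in HBR2340 A to D, and both rose (0.76 ± 0.16 and 1.56 ± 0.25). The call of the third, aqp-3, was lost without N2 B (edgeR adjusted p = 0.0509). The ammonium transporter gene amt-1 had 0.912, 3.52, 1.70 and 2.30 CPM in the N2 libraries A to D and 13.4, 16.38, 22.6 and 13.3 CPM in HBR2340 A to D (fold change 2.98 ± 0.39). The manganese transporter gene smf-1 had 4.63 to 5.86 CPM in N2 A, C and D, 62.8 CPM in N2 B and 7.65 to 8.98 CPM in HBR2340, and its fold change went from −1.26 ± 0.72 to 0.61 ± 0.14 without N2 B. The organic anion transporter gene slc-17.7 had 30.4, 43.5, 33.1 and 29.6 CPM in the N2 libraries A to D and 66.2, 75.7, 102 and 74.4 CPM in HBR2340 A to D (fold change 1.22 ± 0.15), and slc-17.3 was lower (−1.85 ± 0.37).

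Several of the largest changes were in genes known only by sequence names. D1086.9 had 0.304, 0.17, 0.274 and 1.13 CPM in the N2 libraries A to D and 34.1, 36.2, 44.7 and 23.99 CPM in HBR2340 A to D, and W03B1.3 had 0.304, 0.227, 0.329 and 0.79 CPM in the N2 libraries A to D and 18.12, 19.5, 24.4 and 27.2 CPM in HBR2340 A to D. Both were near the level of 3 counts in N2, and no fold is given for them. Y110A2AL.2 (WBGene00022439, chromosome II, 2868001 to 2870841, plus strand) had 14.6, 8.63, 29.9 and 27.5 CPM in the N2 libraries A to D and 234, 329.7, 283 and 411 CPM in HBR2340 A to D, an abundant rise of 3.96 ± 0.42. Among the falls W09C3.7 (WBGene00021114, chromosome I, 4714320 to 4715483, minus strand) had 25.01, 3.29, 49.3 and 28.3 CPM in the N2 libraries A to D and 0.592, 0.897, 1.87 and 1.26 CPM in HBR2340 A to D (fold change −4.52 ± 0.66), and R08F11.7 had 13.2, 23.2, 11.1 and 9.34 CPM in the N2 libraries A to D and 1.85, 1.60, 1.37 and 1.22 CPM in HBR2340 A to D (fold change −3.22 ± 0.33). The most abundant lower gene was F26F12.3, with 2300, 2477, 2132 and 1809 CPM in the N2 libraries A to D and 1608, 1576, 1522 and 1523 CPM in HBR2340 A to D, a small and even difference (−0.49 ± 0.12). The endoribonuclease gene endu-2, also among the most abundant, had 978, 612, 510.4 and 500.3 CPM in the N2 libraries A to D and 392, 346, 214 and 307 CPM in HBR2340 A to D (fold change −1.05 ± 0.25).

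Grouping genes by the letters of their symbols covered 152 classes with at least 10 tested genes, and in 63 of them at least 15% were called in 1 direction in 1 of the fits. With all libraries the highest shares called higher were in aqp (3 of 12), lec (3 of 12), fipr and sup (3 of 13 each) and ttr (8 of 47). Those called lower were in nlp (14 of 65), del and pho (2 of 10 each), cpg and prx (2 of 11 each). The sup genes are suppressors of many kinds and no family by function, and the unc genes, named for uncoordinated movement, had 11 of 94 higher and none lower. Without N2 B nspc (9 of 10), pho (5 of 10), pgp (5 of 14) and oac (8 of 23) had the highest shares lower. Among the classes, cyclophilin genes (cyn) had the largest rise in the share called higher, with 5 of 16 higher against none with all libraries.

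**Figure D5:**
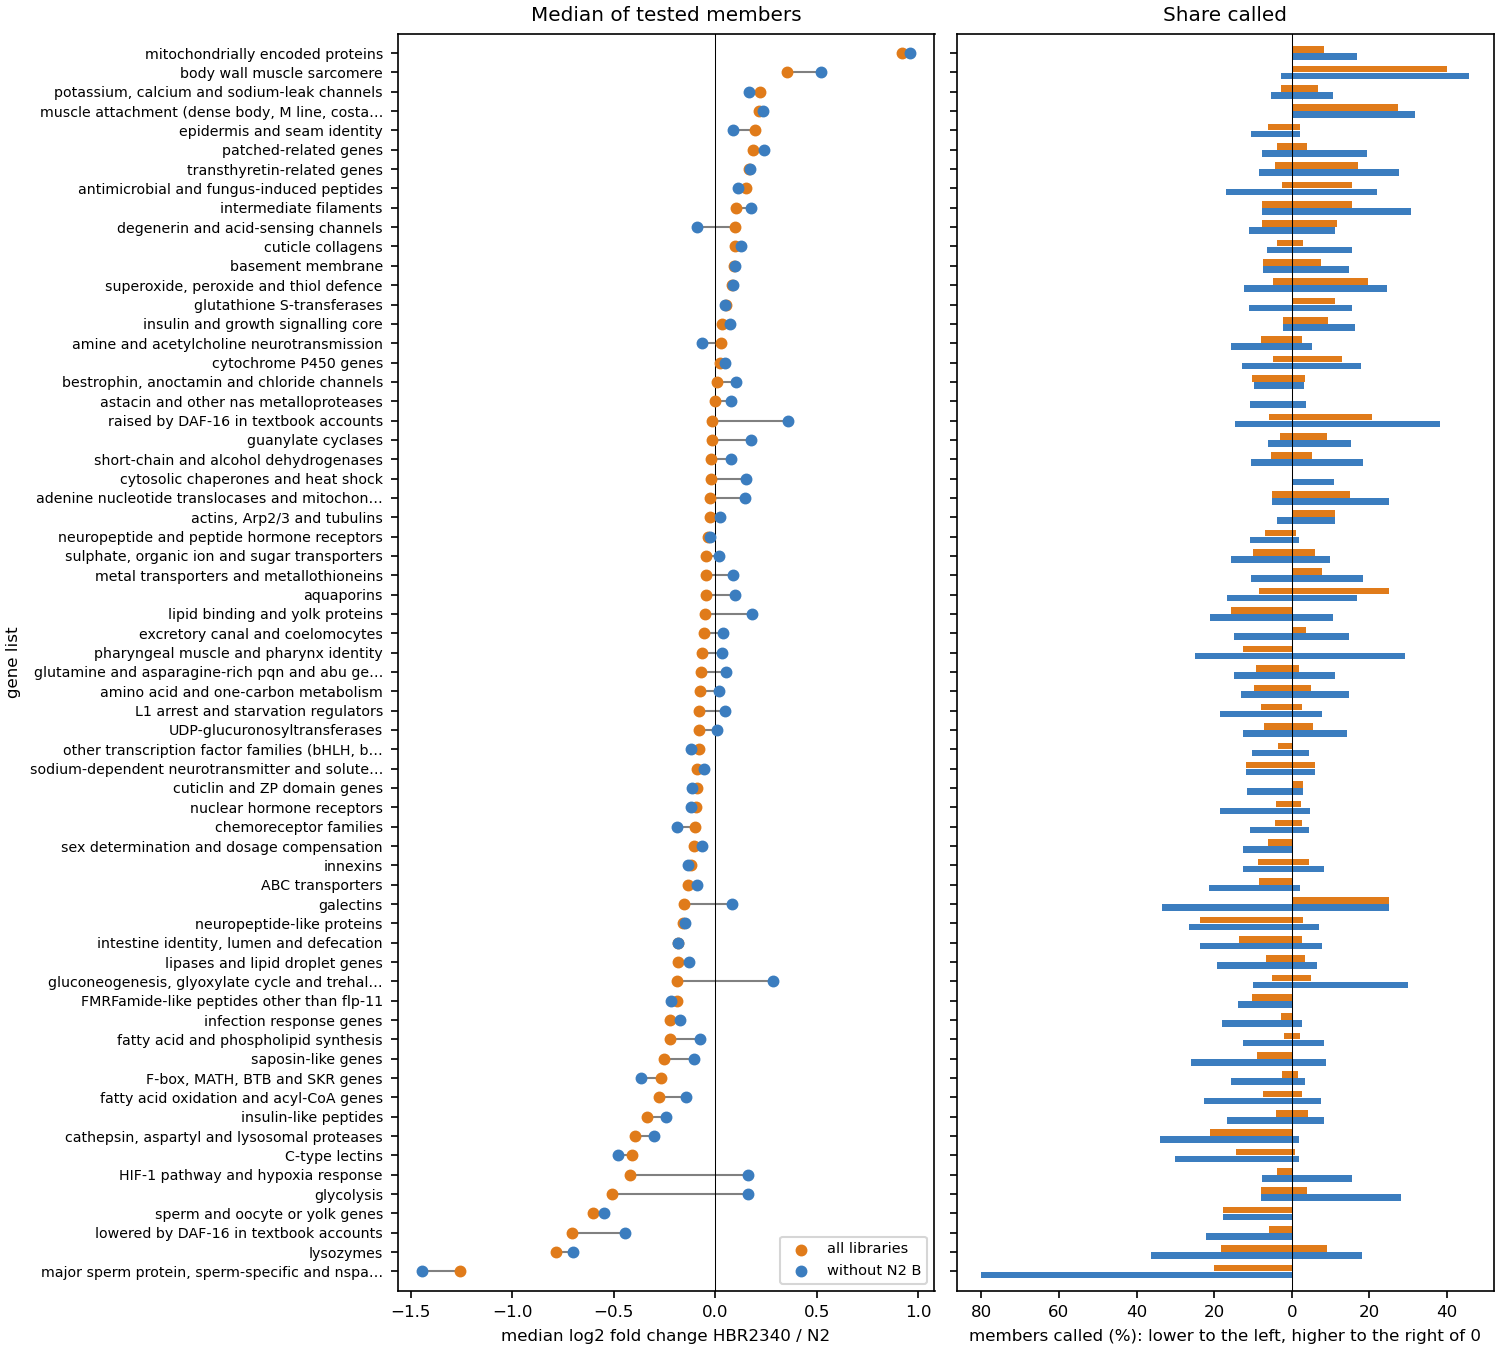
Median log2 fold change of each gene list with all libraries (orange) and without N2 B (blue), joined by a line, for lists with at least 10 tested genes in which at least 10% were called in 1 direction in 1 of the fits, and the share of tested members called higher (right of 0) and lower (left of 0) in percent. Sarcomere genes lie right of 0 in both fits, protease and C-type lectin genes left of 0 in both, and the hypoxia and glycolysis lists cross 0.

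By chromosome, the share of tested genes called was 9.43% on V and 9.38% on X, 6.92% on IV, 6.47% on II, 5.78% on I and 5.41% on III. On X 78 were higher and 143 lower, while on V the numbers were 161 and 171. Without N2 B the shares were 21.3% on V, 20.6% on X and 14.1% to 16.7% on the others. In windows of 2 Mb with at least 50 tested genes, the share called with all libraries was 5.46% to 12.8% on X and 5.07% to 14.7% on V. The window that holds flp-11, from 4000001 to 6000000 on X in the WBcel235 assembly, had 12 higher and 16 lower of 273 tested (10.3%). Protein-coding genes had 7.52% called and pseudogenes 6.84%, and of 207 genes annotated as ncRNA 5 were higher and 2 lower.

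PHX2193, measured in the same series, gave the levels of some of these genes in a second strain with a flp-11 allele. Against it HBR2340 was higher in cpn-3 (3.36 ± 0.21), tnt-2 (2.40 ± 0.19), sod-3 (5.83 ± 0.42), sod-5 (6.44 ± 0.44) and unc-58 (1.21 ± 0.12), and lower in cpr-2 (−4.31 ± 0.50), nlp-64 (−0.96 ± 0.13), acox-1.1 (−1.74 ± 0.35) and ztf-2 (−1.57 ± 0.12), in edgeR's quasi-likelihood test with adjusted p from 2.4e-06 to 0.00441. The level in PHX2193 was 39.98 ± 5.82 CPM for tnt-2, 0.63 ± 0.216 CPM for sod-3, 1236 ± 388 CPM for cpr-2 and 22.6 ± 1.98 CPM for ztf-2 (mean ± SD, n = 4). The nlp-49 and flp-8 levels did not pass between HBR2340 and PHX2193 (−0.27 ± 0.14 and −0.39 ± 0.17, edgeR adjusted p = 0.215 and 0.133). All the genes compared with PHX2193 were picked from those described above against N2. The same HBR2340 libraries and the same fit served both comparisons, so the second is no independent evidence for the first.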

How the data were processed

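The table of read counts per gene deposited by the authors holds raw, unnormalised counts for 46934 genes in 12 libraries, 4 of each of 3 strains, per the file headers and values, and 15339 genes had no count. The submitters' processing notes name Bowtie 0.12.2 and the assemblies WBcel235 and mm8, without saying which step each served. Neither the labels nor those notes give the strand setting or the counting program. Gene positions come from the WBcel235 annotation, to which 46924 genes matched.

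Genes were filtered with edgeR's filterByExpr (minimum count 10, minimum total 15), scaled by TMM and tested with edgeR 4.0.16 (R 4.3.3) by the quasi-likelihood test with robust estimation. The model had 1 mean a strain over all 12 libraries, so that PHX2193 shared in the estimate of spread, and Benjamini-Hochberg adjustment ran over all genes tested. A call is an adjusted p under 0.05. The same fit was run without N2 B. CPM are TMM-scaled, and log2 fold changes are edgeR's with a standard error taken as the fold change over the square root of its F statistic. Code was tested on simulated data. DESeq2 1.42.0, limma 3.58.1 (voom) and other settings are alternatives.

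Most genes named were drawn from those given by a rule. It took flp-11 and unc-58, the largest and the most abundant calls, and up to 6 called members a list in each direction. It also took the first 3 tested members of lists with no call, and the largest moves without N2 B. The rule gave 646 genes, of which 204 are named here, with 6 others outside it. Which of the 646 are named was not set by the rule. The 91 lists, the rule and the comparison were chosen with earlier results of these data known, and misplaced members, such as phy-2 in the pharynx list, were taken out after their values were seen. They are no independent evidence. Lists and symbol classes are described by counts and medians beside the background and were not tested as sets.

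Replicate letters are shared between strains. The correlation of same-letter deviations from the strain means was 0.12 for A, 0.04 for B, 0.20 for C and −0.07 for D, so the letters did not pair the libraries by the rule that every pair exceeds 0.1. Libraries of a strain differed by far more than sampling noise, and none was a copy of another. Total counts per library were 23068345 to 34832403, and 3 counts correspond to 0.0823 to 0.170 CPM. Standard errors reflect the spread within all 3 strains in the fit, PHX2193 included, and not only within N2 and HBR2340.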

Additional observations from a re-analysis of the deposited data

Results flagged for a closer look

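Dixon's ratio (the gap to the nearest library over the range of the strain, against the critical value for 4 libraries) was taken for the genes given library by library, in 208 groups of 4, and it was passed in 31. Chance alone passes about 1 group in 20. Of the 31, 22 were N2 B among the N2 libraries.

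N2 B stood above the other N2 libraries in 21 genes. The metabolic, hypoxia and stress genes among them were acs-2, aldo-2, aak-1, egl-9, hsp-12.3, hsp-70, icl-1, lpin-1, pck-1, pck-2 and phy-2, and the cuticle and muscle genes were col-42, col-103, col-107, csq-1 and mup-4. The levels in N2 B were aak-1 (357 CPM), acs-2 (384 CPM), aldo-2 (5839 CPM), clec-80 (16.06 CPM), col-103 (427 CPM), col-107 (815 CPM), col-42 (1463 CPM), csq-1 (479 CPM), egl-9 (1181 CPM), flp-11 (367 CPM), hsp-12.3 (1024 CPM), hsp-70 (73.2 CPM), icl-1 (1744 CPM), lpin-1 (1342 CPM), mup-4 (48.5 CPM), nhr-6 (35.9 CPM), pck-1 (10090 CPM), pck-2 (4782 CPM), pdk-1 (39.9 CPM), phy-2 (662 CPM) and tdc-1 (18.6 CPM). It stood below them in acs-21 (2.84 CPM). These genes were looked at partly because N2 B had moved their fold changes.

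In the other N2 libraries the levels that stood apart were gcy-36 (10.4 CPM) in N2 C, and D1086.9 (1.13 CPM), asns-2 (15.7 CPM) and haly-1 (288 CPM) in N2 D. In HBR2340 C they were bcat-1 (256 CPM), cnc-11 (54.8 CPM), nhx-2 (6.83 CPM) and srbc-16 (9.05 CPM), of which bcat-1 and nhx-2 were low and cnc-11 and srbc-16 high. In HBR2340 A the level that stood apart was phy-2 (12.96 CPM), the highest of its strain.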

How the results depend on the processing

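The number of genes called with all libraries stayed within 1.5 times of 1173 with DESeq2's size factors (1186), upper quartile factors (1190), no filter (960), at least 10 counts in 4 libraries (1220), limma-voom (1074) and a fit that was not robust (1173). DESeq2 called 1856, with 788 higher and 1068 lower. A fit on the 8 libraries alone called 627, with 324 higher and 303 lower, having fewer libraries for its spread. Adjusted p under 0.01 left 426 genes, 245 higher and 181 lower, and adjusted p under 0.1 gave 1816, 813 higher and 1003 lower. Leaving out 1 library gave 661 to 2880 genes, with 312 to 1288 higher and 336 to 1592 lower, the highest of each without N2 B. The libraries whose loss moved the count by over 1.5 times were N2 A, N2 B and HBR2340 B, C and D. With N2 B left out, 2880 became 2734 on 7 libraries and 3551 with DESeq2, and adjusted p under 0.01 left 1318, 583 higher and 735 lower. Leaving out a further library gave 1690 to 2498 genes, 709 to 1156 higher and 981 to 1432 lower, the lowest without N2 A. A replicate block gave 1053 genes with all libraries, 533 higher and 520 lower, and 2983 without N2 B, 1412 higher and 1571 lower. The letters share only a name, and neither fit with the block moved a count by over 1.5 times, though 18 of the named genes lost their call with all libraries and 6 lost and 2 gained one without N2 B. The flp-11 fold change kept its sign and its call under each setting run, from −1.15 to −0.83 with 1 library left out. A turn of direction was counted only where the gene was called in at least 1 of the fits compared. Among the named genes such turns occurred only without N2 B. Turns in genes not called, such as pck-1, were not counted. With 1 library left out the fold change ran from −0.42 to 0.53 in aldo-2, −3.45 to 0.81 in C56E6.2, −0.39 to 1.52 in col-160, −0.29 to 1.05 in pck-2 and −1.59 to 0.61 in smf-1, each below 0 and not called with all libraries and above 0 and called without N2 B. In each the N2 B level was above every HBR2340 level. Differences under the level of 3 counts were not detectable at this depth.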
